A study of Mus musculus with 8 samples.

Results

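The S100, annexin and galectin genes of activated T cells were followed here as a group of 10, taken by gene symbol from the 23361 genes listed for each library. They were 4 S100 genes (S100a4, S100a6, S100a10 and S100a11), 3 annexin genes (Anxa1, Anxa2 and Anxa5) and 3 galectin genes (Lgals1, Lgals3 and Lgals9). The comparison was between induced regulatory T cells (iTreg) that carried neuropilin-1, a surface co-receptor, and those that did not. It asked how both iTreg subsets differ in their transcripts. RNA sequencing was made from 4 libraries of Nrp-1+ iTreg and 4 of Nrp-1- iTreg. The values are FPKM, which count fragments relative to transcript length and to all mapped fragments of the library.

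All 8 libraries came from wild-type (WT) B6 Foxp3-RFP reporter mice on the C57BL/6 background, in which cells that express the regulatory T cell factor Foxp3 fluoresce red, and the mice were 7 to 8 weeks old. Naive CD4+ T cells were activated with beads carrying anti-CD3 and anti-CD28 in the presence of IL-2 and TGF-β (2 ng/ml). The methods of the study describe them as spleen cells selected with magnetic beads. The labels give the IL-2 dose as 50 U/ml, and the methods of the study give another dose. The culture ran for 3 days according to its protocol, while the time label of the libraries reads day 5. Viable CD4+ Foxp3-RFP+ cells were then sorted, and only the presence or absence of Nrp-1 on the surface separated the groups. The labels number the libraries as biological replicates but do not say whether they came from separate mice or cultures, so the p-values measure the spread between these samples, which may be technical.

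S100 proteins are small calcium-binding proteins of the EF-hand type that usually act as dimers and bind partner proteins when calcium rises. Annexins bind acidic membrane phospholipids in a calcium-dependent manner, and some form complexes with S100 proteins, as annexin A2 does with S100A10 and annexin A1 with S100A11. Galectins bind β-galactoside sugars on glycoproteins, leave the cell without a signal peptide, and act on T cells from outside. Genes of all 3 families are known to rise when naive T cells become activated or memory cells.

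The sort was checked first. Nrp1 itself measured 20.4 to 22.0 FPKM in the Nrp-1+ libraries and 4.70 to 5.31 FPKM in the Nrp-1- libraries, a log2 fold change of 1.92 (limma, adjusted p = 1.35e-07). Foxp3 was at 115.8 ± 3.72 FPKM in the Nrp-1+ and 108.8 ± 1.20 FPKM in the Nrp-1- subset (SD, n = 4 each), and Cd4 and Cd3e exceeded 200 FPKM in both. Foxp3 was called higher (log2 fold change 0.09, limma adjusted p = 0.0245), but not, for example, without Nrp-1- replicate 3 (limma adjusted p = 0.0644). Of 8 regulatory T cell markers, 4 were higher (Foxp3, Il2ra, Ikzf2 and Nrp1 itself) and 2 lower (Cd3d and Ctla4), beside 20.9% and 20.0% of all genes tested. Short RNA genes took between 1.77% and 43.9% of the summed FPKM of a library, with 43.9% in Nrp-1- replicate 1, 38.9% in Nrp-1+ replicate 4 and 36.6% in Nrp-1+ replicate 2. Of these, Nrp-1+ replicate 2 was the highest of its group for 5 of the 10 members, and Nrp-1- replicate 1 was the lowest of its group for 8, so values without Nrp-1- replicate 1 are given below. Depth is not given with FPKM. Values of low genes placed the relative depth of the libraries between 0.810 and 1.23, with Nrp-1+ replicate 1 set to 1.

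Of the 10 members, 7 were higher in Nrp-1+ iTreg at an adjusted p under 0.05 (S100a4, S100a6, S100a11, Anxa1, Anxa2, Lgals1 and Lgals3), and 0 were lower. The test was limma on log2(FPKM + 1), fitted to all 10467 genes that averaged 1 FPKM or more, of which 20.9% were called higher, 20.0% lower and 40.9% in either direction. The other 3 members, S100a10, Anxa5 and Lgals9, had groups that overlapped. In the same 7 genes every Nrp-1+ library exceeded every Nrp-1- library, which held for 20.2% of all genes tested, while 39.5% did not overlap in either direction and 19.3% did not while lower. The members' median log2 fold change was 0.27, against -0.02 over all genes tested. All 10 members passed the filter on low values, but Anxa1 did so only through the Nrp-1+ group, where it is higher, so it had to differ and the counts do not stand as support. Without Nrp-1- replicate 1 the number called was also 7, with log2 fold changes of 0.77 in S100a4, 0.24 in S100a6, 0.15 in S100a11, 0.40 in Anxa1, 0.29 in Anxa2, 0.35 in Lgals1 and 0.23 in Lgals3.

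**Figure D1:**
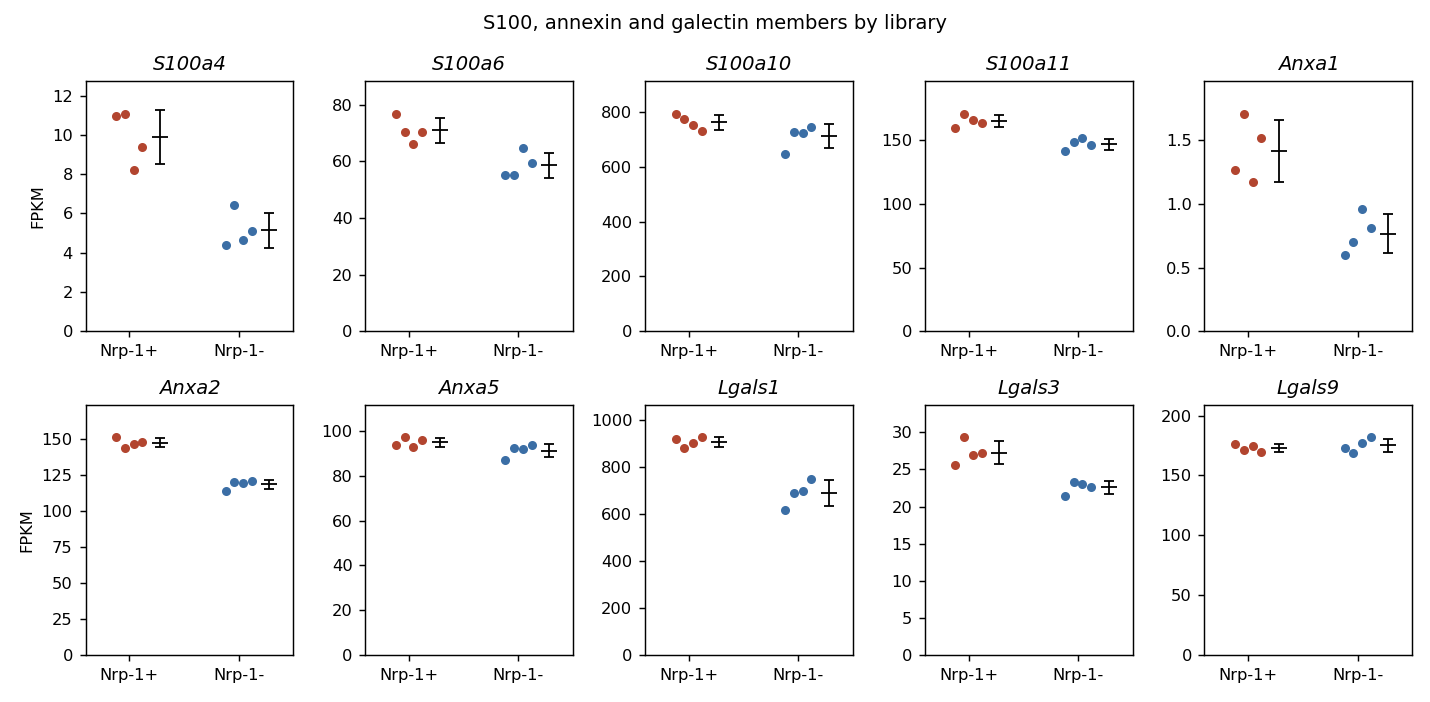
FPKM of each of the 10 members (vertical axes, each from 0) in the 4 Nrp-1+ (red) and 4 Nrp-1- (blue) iTreg libraries, with points in replicate order and bars for the mean and SD. In 7 panels the red and blue points do not overlap, while in those of S100a10, Anxa5 and Lgals9 they do.

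The S100 genes ranged widely in level. S100a4, which encodes a protein that binds non-muscle myosin and is linked to cell movement, measured 10.97, 11.1, 8.21 and 9.39 FPKM in Nrp-1+ replicates 1 to 4 and 4.37, 6.41, 4.65 and 5.11 FPKM in Nrp-1- replicates 1 to 4. The lowest Nrp-1+ library lay above the highest Nrp-1- library. The means were 9.91 ± 1.37 and 5.14 ± 0.901 FPKM (SD, n = 4 each), 93.1% higher in Nrp-1+ iTreg, with a log2 fold change of 0.83 (SE 0.12, limma adjusted p = 0.000931), the highest of the 10 members. Only Anxa1 had a lower level than S100a4 among the members.

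S100a6 (calcyclin), which lies near S100a4 on the chromosome, measured 76.9, 70.4, 66.3 and 70.2 FPKM in Nrp-1+ iTreg and 55.2, 55.1, 64.6 and 59.5 FPKM in Nrp-1- iTreg. The groups came close, as Nrp-1+ replicate 3 and Nrp-1- replicate 3 were less than 2 FPKM apart, but did not overlap. The mean rose by 12.3 FPKM, a log2 fold change of 0.27 (SE 0.06, limma adjusted p = 0.00844). S100a11, whose protein binds annexin A1, measured 159.8, 171, 166 and 164 FPKM in Nrp-1+ iTreg and 142, 149, 152 and 146 FPKM in Nrp-1- iTreg. Here too all Nrp-1+ libraries were higher, by 12.3% on average and by a log2 fold change of 0.17 (SE 0.03, limma adjusted p = 0.00244).

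S100a10 was by far the most abundant of the 4. Its protein, p11, does not respond to calcium and serves as the light chain of the annexin A2 complex. Nrp-1+ iTreg held 793, 772, 751 and 731 FPKM of it, and Nrp-1- iTreg 646, 727, 724 and 746 FPKM. Nrp-1- replicate 1 stood below the other libraries of its group, and Nrp-1- replicate 4 exceeded Nrp-1+ replicate 4. The means of 761.9 ± 27.0 and 710.7 ± 44.1 FPKM gave a log2 fold change of 0.10 (SE 0.05) that was not called (limma adjusted p = 0.130), and without Nrp-1- replicate 1 it came to 0.06.

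The S100a genes lie on chromosome 3 (GRCm38.p6), where 14 of those measured run from S100a1 to S100a10, with a wide gap between S100a9 (chr3:90692630-90695721) and S100a11. S100a4 (chr3:90603770-90606045) and S100a6 (chr3:90612894-90614414) are 6.849 kb apart, and S100a11 (chr3:93520496-93526288) and S100a10 (chr3:93555117-93564645) are 28.829 kb apart. Neighbouring genes differed widely in level. S100a5, which lies 0.435 kb from S100a4, reached at most 0.213 FPKM in any library, and S100a8 and S100a9, the calprotectin genes of neutrophils, were listed at 0 in all 8. For S100a4, 1 other gene model shared at least 95% identity over up to 302 bases, and for S100a11 2 did over up to 297 bases, none of them listed among the genes measured, so reads could be split there.

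The promoters of S100a4 and S100a11 are shown because S100a4 had the largest and S100a11 the smallest fold change among the called S100 genes. They are RefSeq windows of build GRCm38.p6 that hold 250 bases before and 50 after the annotated start, written 5′ to 3′ on the strand of the gene, and windows were matched for 8 of the 10 members (not for S100a10 and Lgals1). Capitals mark matches, on either strand, to the AP-1 site TGANTCA, the GC box GGGCGG and the TATA box TATAAA. The cell cycle homology region TTTGAA was searched as well and is not capitalised. The window of S100a4 is chr3:90603520-90603819 on the plus strand, and that of S100a11 is chr3:93520246-93520545 on the plus strand.
S100a4: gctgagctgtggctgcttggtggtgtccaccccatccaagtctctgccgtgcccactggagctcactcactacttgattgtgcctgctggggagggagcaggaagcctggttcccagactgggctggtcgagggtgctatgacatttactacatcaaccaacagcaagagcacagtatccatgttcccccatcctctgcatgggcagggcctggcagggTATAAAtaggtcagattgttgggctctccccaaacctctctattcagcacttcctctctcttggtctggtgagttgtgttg
S100a11: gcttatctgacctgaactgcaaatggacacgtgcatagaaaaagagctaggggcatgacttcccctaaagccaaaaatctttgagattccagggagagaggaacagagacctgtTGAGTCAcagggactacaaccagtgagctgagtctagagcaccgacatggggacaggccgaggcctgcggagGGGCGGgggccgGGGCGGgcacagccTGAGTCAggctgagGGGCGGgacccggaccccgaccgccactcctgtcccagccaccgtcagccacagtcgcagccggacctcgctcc
S100a4 has a single TATA box match that begins at position -31 from the start. S100a11 has none, and instead 2 AP-1 matches and 3 GC box matches. Of all 32851 promoter windows, 7.81% held an AP-1 match, 35.7% a GC box match, 13.6% a TATA box match and 17.9% a TTTGAA match. The members were 2, 3, 3 and 1 of 8 in the same order. S100a6 had no match to any of the 4 motifs. A match describes the letters only.

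Among the annexins, Anxa2 separated the subsets most clearly. Annexin A2 carries S100A10 to the inner face of the plasma membrane, and at the surface the complex binds plasminogen. Its levels were 151, 144, 147 and 148 FPKM in Nrp-1+ iTreg and 114, 120.4, 119 and 121 FPKM in Nrp-1- iTreg. No library came near the other group, since the SDs were 3.09 and 3.28 FPKM around means of 147.6 and 118.7 FPKM (n = 4 each). The mean was 24.4% higher, a log2 fold change of 0.31 (SE 0.03, limma adjusted p = 4.10e-05, the lowest of the 10 members).

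Anxa1, whose protein acts on formyl peptide receptors and restrains inflammation, was barely present. It was listed at 1.27, 1.71, 1.18 and 1.52 FPKM in Nrp-1+ iTreg and at 0.595, 0.702, 0.958 and 0.808 FPKM in Nrp-1- iTreg. All Nrp-1+ libraries were higher, and all Nrp-1- libraries lay under 1 FPKM. Anxa1 thus passed the filter only through the Nrp-1+ group, so its call does not stand as support. The mean was 85.1% higher on the FPKM scale, while the log2 fold change on log2(FPKM + 1), which understates low genes, was 0.45 (SE 0.10, limma adjusted p = 0.00789).

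Anxa5 encodes the phosphatidylserine-binding protein that is used to stain dying cells. It measured 93.9, 97.2, 92.8 and 96.2 FPKM in Nrp-1+ iTreg and 87.2, 92.4, 91.8 and 93.8 FPKM in Nrp-1- iTreg. The groups overlapped, and the log2 fold change of 0.06 (SE 0.03) was not called (limma adjusted p = 0.133). Without Nrp-1- replicate 1 it came to 0.04.

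The promoters of Anxa1 and Anxa2, the 2 called annexins, are shown in the same way. Anxa1 (chr19:20373434-20390671) has its window at chr19:20390622-20390921 on the minus strand, and Anxa2 (chr9:69453683-69491792) has its window at chr9:69453433-69453732 on the plus strand.
Anxa1: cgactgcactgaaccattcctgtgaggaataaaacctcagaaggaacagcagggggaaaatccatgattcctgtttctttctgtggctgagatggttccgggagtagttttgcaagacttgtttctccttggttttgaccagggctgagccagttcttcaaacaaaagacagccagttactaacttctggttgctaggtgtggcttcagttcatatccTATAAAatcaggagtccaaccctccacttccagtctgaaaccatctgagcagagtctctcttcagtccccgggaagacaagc
Anxa2: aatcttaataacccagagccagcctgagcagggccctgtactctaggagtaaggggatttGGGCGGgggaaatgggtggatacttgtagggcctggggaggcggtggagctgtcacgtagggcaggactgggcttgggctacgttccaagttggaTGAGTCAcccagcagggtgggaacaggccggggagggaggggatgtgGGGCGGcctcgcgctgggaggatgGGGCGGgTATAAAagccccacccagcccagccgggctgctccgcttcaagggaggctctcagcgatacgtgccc
Both hold a TATA box match, at position -32 in Anxa1 and at position -17 in Anxa2. The window of Anxa1 also holds the members' only TTTGAA match, at position -94. Anxa2 adds an AP-1 match at position -95 and 3 GC box matches, as S100a11 does with its 2 AP-1 and 3 GC box matches. The window of Anxa5 (chr3:36448923-36475887) had no match.

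Lgals1 was the most abundant member in Nrp-1+ iTreg. Galectin-1 binds CD45, CD43 and CD7 on T cells and is known as a product of regulatory T cells that takes part in suppression. Its levels were 918, 882, 903 and 927 FPKM in Nrp-1+ iTreg and 619, 690.2, 701 and 751 FPKM in Nrp-1- iTreg. Every Nrp-1+ library exceeded every Nrp-1- library by more than 100 FPKM, and the Nrp-1- group was the more spread. Means of 907.6 ± 19.8 and 690.3 ± 54.3 FPKM (SD, n = 4 each) gave a difference of 31.5% and a log2 fold change of 0.40 (SE 0.05, limma adjusted p = 0.000673). Under quantile normalization the log2 fold change was 0.41, but the call was lost (limma adjusted p = 0.149).

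Lgals3 encodes the chimera galectin, which has a single sugar-binding domain on a long tail and binds branched N-glycans on the T cell receptor. It was at 25.6, 29.3, 26.9 and 27.2 FPKM in Nrp-1+ iTreg and 21.4, 23.3, 23.0 and 22.6 FPKM in Nrp-1- iTreg. The groups did not overlap, and the log2 fold change was 0.26 (SE 0.04, limma adjusted p = 0.00219). When GC content and length of the transcripts were corrected for, an alternative added after the data were seen, the log2 fold change was 0.23 and the call was lost (limma adjusted p = 0.0846).

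Lgals9 behaved otherwise. Galectin-9 has a sugar-binding domain at each end and is known as a ligand of Tim-3. Nrp-1+ iTreg held 176, 171, 174 and 170.0 FPKM and Nrp-1- iTreg 173, 169, 177 and 182 FPKM. The groups were interleaved, with a log2 fold change of -0.02 (SE 0.03, limma adjusted p = 0.633). An exact two-sided permutation test of the means gave p = 0.543, while each of the 7 called members gave 0.0286, the smallest that 4 against 4 libraries allow. S100a10 and Anxa5 gave 0.0571 each.

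The promoter of Lgals9 (gene at chr11:78962979-78984924, window at chr11:78984875-78985174 on the minus strand) is shown for contrast, as that of the member whose levels overlapped throughout.
Lgals9: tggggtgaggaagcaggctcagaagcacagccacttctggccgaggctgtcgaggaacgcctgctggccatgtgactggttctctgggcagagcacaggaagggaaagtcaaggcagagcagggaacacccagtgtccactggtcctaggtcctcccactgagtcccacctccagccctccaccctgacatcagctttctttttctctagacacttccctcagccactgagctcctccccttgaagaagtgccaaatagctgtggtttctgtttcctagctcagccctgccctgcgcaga
It holds no match to the 4 motifs, nor did the windows of S100a6 and Anxa5, of which S100a6 was called and Anxa5 was not. The window of Lgals3 (chr14:47373860-47386167) had 2 GC box matches and no other.

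The order of the members by FPKM, a scale per length, was nearly the same in both subsets. In Nrp-1+ iTreg it ran Lgals1, S100a10, Lgals9, S100a11, Anxa2, Anxa5, S100a6, Lgals3, S100a4 and Anxa1, and only the neighbours Lgals9 and S100a11 overlapped between libraries. In Nrp-1- iTreg S100a10 came before Lgals1, and those were the only neighbours that overlapped. The 10 members summed to between 2336 and 2408 FPKM in Nrp-1+ libraries and between 1863 and 2128 FPKM in Nrp-1- libraries. In such bulk values, fewer cells of a type and less RNA per cell cannot be told apart.

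Ratios of FPKM between members within a library do not depend on how the library was scaled, and 3 were compared. The log2 differences and tests used log2(FPKM + 1), and the added 1 makes them depend on scaling, most at low levels such as those of S100a4. In alternatives that kept all libraries, the log2 difference of S100a4 to S100a6 ran from 0.56 to 0.68. S100a10 to Anxa2, the partners of the membrane complex, stood at 5.24, 5.36, 5.12 and 4.93 in Nrp-1+ iTreg and at 5.68, 6.04, 6.07 and 6.16 in Nrp-1- iTreg. The ratio was thus lower in every Nrp-1+ library, by -0.21 on the log2 scale (exact two-sided permutation test, p = 0.0286, adjusted over the 3 ratios 0.0429). S100a4 to S100a6 stood at 0.143, 0.157, 0.124 and 0.134 against 0.0793, 0.116, 0.0719 and 0.0859, higher in every Nrp-1+ library by 0.56 on the log2 scale (exact permutation p = 0.0286, adjusted 0.0429). Lgals1 to Lgals3 averaged 33.4 ± 2.45 and 30.6 ± 1.90 (SD, n = 4 each), groups that overlapped (exact permutation p = 0.0857, adjusted 0.0857). The calls of S100a10 to Anxa2 and of S100a4 to S100a6 were both lost without Nrp-1+ replicate 1, 2, 3 or 4 (adjusted exact permutation p of 0.0571 to 0.0857). The groups still did not overlap there, and fewer libraries allow fewer splits, so the loss does not show that the ratios were unstable.

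**Figure D2:**
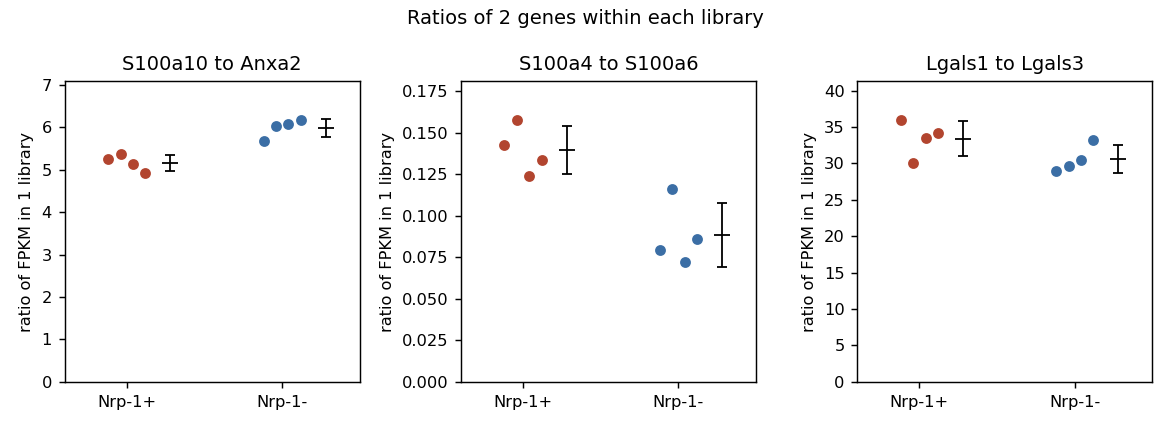
Ratio of the FPKM of 2 members within each library (vertical axes, from 0) for 3 pairs, with Nrp-1+ libraries in red, Nrp-1- libraries in blue, and bars for the mean and SD. The S100a10 to Anxa2 ratio is lower and the S100a4 to S100a6 ratio higher in all 4 Nrp-1+ libraries, and the Lgals1 to Lgals3 ratios overlap.

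Of 30 other S100, annexin and galectin genes, 10 could be tested, of which 3 were higher (S100a1, Anxa4 and Grifin) and 3 lower (Anxa6, Anxa7 and Lgals8), with a median log2 fold change of 0.08. Over all genes tested, 20.9% were higher and 20.0% lower. Of these 10, 0 were higher and 3 were lower without overlap between the groups. Of the 20 not tested, 19 were under 1 FPKM in every library, 5 of them listed at 0 throughout (S100a7a, S100a8, S100a9, Anxa10 and Anxa13). Grifin, a galectin-related gene of the lens, had means of 3.96 and 2.50 FPKM in Nrp-1+ and Nrp-1- iTreg (log2 fold change 0.50, limma adjusted p = 0.0470), and S100a1 had means of 9.73 and 6.65 FPKM (0.47, limma adjusted p = 0.0167). In both genes, and in Anxa4 (4.65 and 3.66 FPKM, 0.28, limma adjusted p = 0.0312), the groups overlapped. Grifin lost its call without Nrp-1+ replicate 1, 2 or 4 or Nrp-1- replicate 1, 2 or 4 (limma adjusted p of 0.0637 to 0.111), and Anxa4 without Nrp-1+ replicate 1 or 3 or Nrp-1- replicate 2, 3 or 4 (0.0587 to 0.0783). The annotated spans of S100a1 and S100a13 overlap, so their reads may be split, and S100a13 had a mean of 128.2 FPKM in each subset.

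The lower genes did not overlap between the groups. Lgals8, a galectin with a sugar-binding domain at each end like Lgals9, averaged 15.7 ± 0.331 FPKM in the Nrp-1+ and 17.8 ± 0.396 FPKM in the Nrp-1- subset (SD, n = 4 each), a log2 fold change of -0.17 (limma adjusted p = 0.00105). Anxa6, the most abundant annexin of these cells, averaged 313.8 and 331.8 FPKM (-0.08, limma adjusted p = 0.0107). Anxa7 averaged 26.9 and 28.5 FPKM (-0.08, limma adjusted p = 0.0397). Anxa7 lost its call without Nrp-1+ replicate 3 or 4 or any 1 Nrp-1- library (limma adjusted p of 0.0587 to 0.0887), while Anxa6 and Lgals8 kept theirs with any library left out. Anxa7 also lost it with size factors, quantile normalization, a replicate block, eBayes without a trend, or the correction for GC content and length (limma adjusted p of 0.0513 to 0.0757). Anxa6 lost its call under quantile normalization (-0.06, limma adjusted p = 0.645) and with a replicate block (limma adjusted p = 0.0567). Anxa11, at 66.4 and 68.1 FPKM, was not called (limma adjusted p = 0.251).

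**Figure D3:**
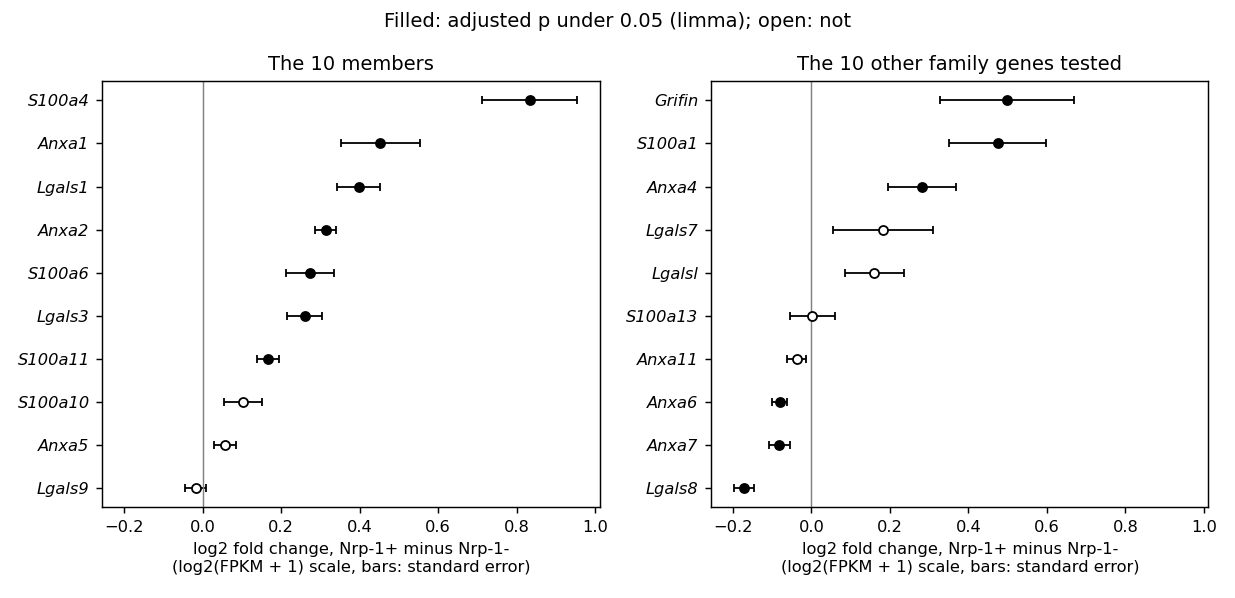
Log2 fold change (horizontal axes, Nrp-1+ minus Nrp-1-, log2(FPKM + 1) scale) of the 10 members and of the 10 other family genes tested, with bars for the standard error and filled points for a limma adjusted p under 0.05. The members run from Lgals9 at -0.02 to S100a4 at 0.83, and the other genes lie on both sides of 0.

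Receptors and partners of the members were described by a list of 24 genes, of which 16 were tested, 6 were higher (Itgb1, Ahnak, Cd44, Lgals3bp, Mgat5 and P4hb) and 3 lower (Ager, Cd7 and Ptprc), with a median log2 fold change of 0.07. Of all genes tested, 20.9% were higher and 20.0% lower. Itgb1, the integrin β1 chain, averaged 38.2 and 22.7 FPKM in Nrp-1+ and Nrp-1- iTreg (log2 fold change 0.73, limma adjusted p = 2.33e-07). Ahnak, a scaffold of the annexin A2 and S100A10 complex, averaged 9.07 and 7.56 FPKM (0.24, limma adjusted p = 0.0195), and narrowly lost its call without Nrp-1+ replicate 1 or 3 or Nrp-1- replicate 2 (limma adjusted p of 0.0508 to 0.0513). Ahnak also lost its call with a replicate block (limma adjusted p = 0.0579). Cd44, an adhesion receptor that marks memory cells, averaged 22.8 and 19.2 FPKM (0.24, limma adjusted p = 0.000736). Mgat5, the enzyme that branches the N-glycans galectins bind, averaged 5.25 and 4.43 FPKM (0.20, limma adjusted p = 0.0432), and lost its call without Nrp-1+ replicate 1, 2 or 3 or Nrp-1- replicate 1, 2 or 3 (log2 fold change of 0.15 to 0.22, limma adjusted p of 0.0648 to 0.0943).

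The lower partners included surface proteins that galectin-1 binds. Cd7 averaged 90.0 FPKM in Nrp-1+ and 114.2 FPKM in Nrp-1- iTreg (log2 fold change -0.34, limma adjusted p = 0.000711), and Ptprc, which encodes CD45, averaged 345.0 and 374.7 FPKM (-0.12, limma adjusted p = 0.0142). Under quantile normalization Ptprc had a log2 fold change of -0.10 and was not called (limma adjusted p = 0.377). Spn, which encodes CD43, was at 198.5 and 190.5 FPKM and was not called (limma adjusted p = 0.119). Ager, the receptor RAGE that binds several S100 proteins, was low and averaged 1.37 and 2.38 FPKM (-0.50, limma adjusted p = 0.00250). Myh9, the myosin heavy chain bound by S100A4, was at 290.6 and 291.3 FPKM (limma adjusted p = 0.941). Fpr1 and Fpr2, the formyl peptide receptors of annexin A1, and Plg were listed at 0 in all libraries, and Havcr2, which encodes Tim-3, stayed under 1 FPKM.

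Effector-memory genes are known to rise with the members in activated T cells. Of 14 tested, 6 were higher (Tagln2, Lmna, Capg, Vim, Tnfrsf9 and Emp3) and 1 was lower (Lsp1), with a median log2 fold change of 0.16, where 20.9% of all genes tested were higher and 20.0% lower. Tagln2, an actin-binding protein, averaged 204.3 and 139.3 FPKM (0.55, limma adjusted p = 7.35e-07), and Vim, vimentin, averaged 1795 and 1449 FPKM (0.31, limma adjusted p = 1.81e-05). Under quantile normalization the log2 fold change of Vim was 0.47 and it was not called (limma adjusted p = 0.0704). Lmna, a protein of the nuclear lamina, was low, at 2.24 and 1.27 FPKM (0.53, limma adjusted p = 0.0177), and Tnfrsf9, the co-stimulatory receptor CD137, averaged 22.7 and 18.6 FPKM (0.27, limma adjusted p = 0.00856). Capg, an actin-capping protein, averaged 323.3 and 257.0 FPKM (0.33, limma adjusted p = 0.000355). Crip1, the most abundant, was at 1961 and 1798 FPKM and was not called (limma adjusted p = 0.0724), although it was without Nrp-1- replicate 4 (limma adjusted p = 0.0459). Lsp1, a leukocyte actin-binding protein, averaged 470.2 and 549.4 FPKM (-0.22, limma adjusted p = 0.000277). Under quantile normalization its log2 fold change was -0.21 and it was not called (limma adjusted p = 0.179).

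Of 10 genes of naive T cells, all tested, 7 were lower (among them Ccr7, Lef1, Tcf7, Il7r, S1pr1 and Satb1) and 1 was higher (Igfbp4), with a median log2 fold change of -0.12 and the same shares of 20.0% lower and 20.9% higher over all genes tested. Il7r, the IL-7 receptor chain, averaged 122.8 and 157.7 FPKM (-0.36, limma adjusted p = 6.84e-05). S1pr1, which guides T cells out of lymph nodes, averaged 188.1 and 225.7 FPKM (-0.26, limma adjusted p = 2.36e-05), and Tcf7 averaged 310.5 and 364.3 FPKM (-0.23, limma adjusted p = 2.75e-05). Satb1, a chromatin organizer of T cells, averaged 127.0 and 142.9 FPKM (-0.17, limma adjusted p = 0.000648). Ccr7, a chemokine receptor that guides T cells into lymph nodes, was closer between the subsets and averaged 435.4 and 472.6 FPKM (-0.12, limma adjusted p = 0.00239). Igfbp4, a binding protein of insulin-like growth factors, averaged 1099 and 881.6 FPKM (0.32, limma adjusted p = 0.000212). Under quantile normalization Tcf7, Ccr7 and Igfbp4 had log2 fold changes of -0.21, -0.09 and 0.40 and were not called (limma adjusted p = 0.0969, 0.463 and 0.141).

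Genes of the dividing cell moved with the members and by more. All 15 proliferation genes tested were higher in Nrp-1+ iTreg, beside 20.9% of all genes tested, by log2 fold changes of 0.70 to 1.00 and a median of 0.91, and their summed level was 2015 to 2067 FPKM against 1116 to 1131 FPKM. Top2a, a topoisomerase of replicating chromosomes, averaged 346.2 and 173.2 FPKM (1.00, limma adjusted p = 1.84e-07), and Mki67, the proliferation marker Ki-67, averaged 82.3 and 46.3 FPKM (0.82). On this scale only S100a4 of the members came within that range, and with a pseudocount of 0.1 Anxa1 also had a log2 fold change of 0.81. The part of cell division in the members' differences was not tested.

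**Figure D4:**
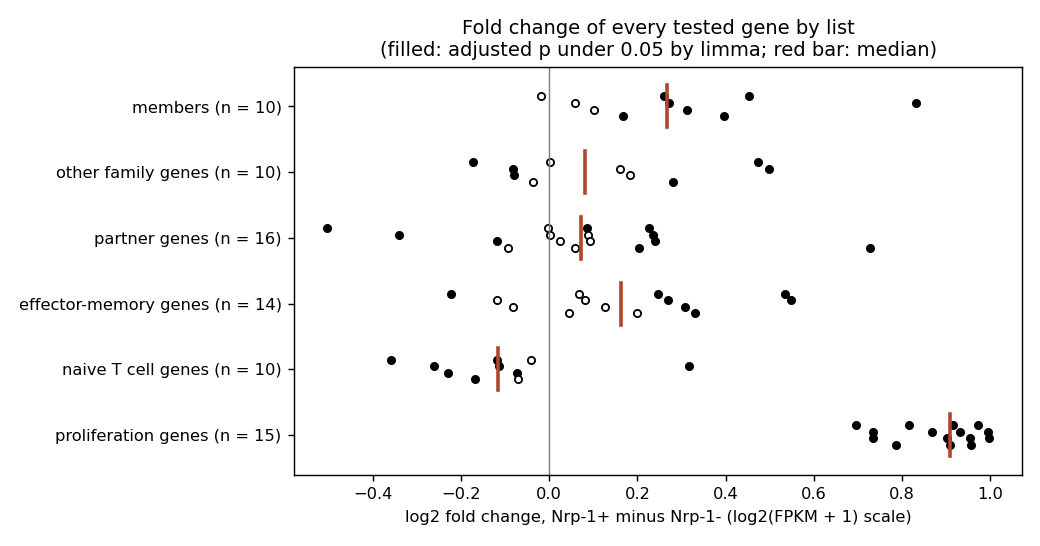
Log2 fold change of every tested gene (horizontal axis, Nrp-1+ minus Nrp-1-, log2(FPKM + 1) scale) in 6 lists (vertical axis), filled where the limma adjusted p was under 0.05, with a red bar at the median. The medians run from -0.12 in the naive T cell genes through 0.27 in the members to 0.91 in the proliferation genes.

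Markers of other cells that carry S100, annexin or galectin transcripts were low. All 6 granulocyte markers were under 1 FPKM in every library, with a summed level of at most 0.0966 FPKM. Of the 9 macrophage and dendritic cell markers used, 5 (Lyz2, Csf1r, Tyrobp, Fcer1g and Itgax) stayed at or below 0.532 FPKM, and the list summed to 24.9 to 29.5 FPKM in Nrp-1+ and 23.3 to 29.8 FPKM in Nrp-1- libraries. Within it 2 genes were higher, Cd74, the invariant chain of MHC class II (8.69 and 5.58 FPKM), and Itgam (6.70 and 5.56 FPKM), and H2-Ab1 was lower (10.2 and 13.8 FPKM). Red cell, platelet and stromal markers summed to 5.64 to 8.21 and 2.41 to 4.37 FPKM, and the list's highest level was that of Hba-a1, a globin gene (6.10 and 2.52 FPKM). B cell markers summed to 5.21 to 5.91 and 4.01 to 5.80 FPKM, and NK and CD8 cell markers to 11.5 to 12.9 and 13.8 to 16.6 FPKM. Their part in the members' differences was not tested.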

How the data were processed

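RNA-seq was used from 4 libraries of Nrp-1+ and 4 of Nrp-1- iTreg. Reads were handled by the authors in the CLC Genomics Workbench and turned into FPKM by Cufflinks, and the deposited table gives each gene symbol 1 FPKM in each library. The genome builds in the submitters' processing notes are GRCm38 and mm10, and the annotation and strand setting are not given in the sources used here. The library kit is named differently in the labels and in the study's methods. Count models were not used, since FPKM is normalized. Because precision depends on depth, which FPKM does not give, no counting interval was computed.

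Genes with a mean of at least 1 FPKM (10467 of 23361) entered limma 3.58.1, applied to log2(FPKM + 1) (lmFit, eBayes with a trend, no covariate) in R 4.3.3, with Benjamini-Hochberg adjustment over all of them and a threshold of 0.05. The procedure was tested on simulated data with independent noise of equal size in every gene. That setting lacks the library differences seen here, so it gives no error rate for these data. Exact two-sided permutation tests over libraries used Python 3.11.15. Levels, lists, genomic order and promoter motifs were read with pandas 2.3.3, and figures were drawn with matplotlib 3.10.9. The members and lists were chosen with earlier results of these data known. Values were named for all members and, in the other family, partner, effector-memory and naive T cell lists, for the 5 called genes with the largest log2 fold change and the 3 with the highest mean, and for Nrp1, Foxp3, Mki67 and Top2a. A gene of the naive T cell list that this rule names is not reported here. Mgat5, Cd74, Itgam, H2-Ab1 and Hba-a1 were named beyond that where a count or a role called for it, after their values were seen, as were the promoters shown. Alternatives were other pseudocounts and filters, other normalizations, a replicate block, leaving out each library, and a correction for GC content and length.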

Additional observations from a re-analysis of the deposited data

Results flagged for a closer look

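Among the 88 groups of 4 libraries looked at (44 named genes in each subset), 4 had a library whose gap to the nearest other, as a share of the range of its group, exceeded Dixon's 95% critical value, where chance gives about 4.4. None of the 4 was in a member, although Nrp-1- replicate 1 was the lowest for S100a10 without passing that value. Anxa6 was at 308.4 FPKM in Nrp-1+ replicate 3, with the others at 315.3 to 315.7 FPKM. Cd7 was at 97.5 FPKM in Nrp-1+ replicate 1, with the others at 86.9 to 88.5 FPKM. Ccr7 was at 446.1 FPKM in Nrp-1+ replicate 4, with the others at 430.7 to 432.5 FPKM. Igfbp4 was at 857.6 FPKM in Nrp-1- replicate 4, with the others at 889.2 to 890.5 FPKM.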

How the results depend on the processing

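The count of 7 higher members was 7 when any library was left out and 6 or 7 in the other alternatives but 1, which combined a replicate block with a correction for GC content and length (chosen after seeing the data) and gave 4. There S100a11 (log2 fold change 0.24, limma adjusted p = 0.0890), Anxa1 (0.41, 0.102) and Lgals3 (0.23, 0.123) lost their call. A filter at a mean of 5 FPKM leaves Anxa1 out. Whether the replicate numbers pair the libraries could not be decided. Deviations of same-numbered libraries correlated at -0.54, -0.02, 0.01 and -0.50 over all genes tested. There 0 of 8 libraries correlated best with its own number. Over the members alone the correlations were -0.28, 0.48, 0.14 and 0.22. The highest correlations over all genes joined libraries with similar shares of short RNA genes. They were Nrp-1+ replicates 2 and 4 with Nrp-1- replicate 1 (0.51 and 0.47), and Nrp-1+ replicates 1 and 3 with Nrp-1- replicate 4 (0.51 and 0.60). Such library differences could hide a pairing. The replicate block kept all 7 member calls. It left 1 other family gene lower, and in sign-flip tests by number, which cannot go below 0.125, the ratios of -0.21 and 0.56 gave exact p = 0.125.

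Higher other family genes numbered 1 with no filter, 1 with the filter at 5 FPKM and 1 to 3 with a library left out (1 without Nrp-1+ replicate 1, Nrp-1- replicate 2 or Nrp-1- replicate 4), and lower ones 1 under quantile normalization and 1 with block and correction. Quantile normalization gave 0 lower effector-memory genes, 0 higher naive genes and 3 lower naive genes, and block and correction gave 4 lower naive genes. Leaving out a library moved the S100a10 to Anxa2 ratio between -0.24 and -0.19 and the S100a4 to S100a6 ratio between 0.48 and 0.68. Without any 1 of the Nrp-1+ libraries neither passed (adjusted exact permutation p of 0.0571 to 0.0857), although the groups still did not overlap and fewer splits were possible.

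Signs turned only in genes that were not called. With a library left out, the log2 fold change ran from -0.036 to 0.00026 in Lgals9, from -0.053 to 0.029 in S100a13 and from -0.021 to 0.012 in Myh9. Under quantile normalization S100a13 came to -0.017 and Myh9 to 0.0048, and with size factors Myh9 came to 0.0030. Where no value shows it, the cause was not tested.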

Other observations

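The genes closest to each member across the 8 libraries were looked up on log2(FPKM + 1), as a description over libraries that share their depth and their grouping. Anxa2 followed Cpd, carboxypeptidase D (Pearson r = 0.996), and Rpa2, a subunit of the single-strand DNA binding protein of replication (0.994). S100a11 and Lgals3 were nearest to each other (0.988), and Pde5a was the next gene for both (0.984 and 0.979). Lgals1 followed Anapc15 and Clic1 (0.991 each), S100a4 followed Camkk1 (0.989) and Dcun1d2 (0.984), S100a6 followed Zbed4 (0.980) and Gpc1 (0.976), and Anxa1 followed Shmt1 (0.980) and Agbl5 (0.979). For the members that were not called, the nearest genes were Prpf19 (0.961) and Crip1 (0.957) for S100a10, Nqo2 (0.962) and Gpr55 (0.946) for Anxa5, and Tor3a (0.938) and Tspan9 (0.933) for Lgals9. Among the 45 pairs of members r had a median of 0.806. Within the groups, as deviations from the group means, the median was 0.393, with S100a11 and Lgals3 at 0.926.

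Of the 33 genes that lie next to a member on the chromosome (up to 2 on each side), 12 were tested, 4 were higher in Nrp-1+ iTreg and 0 were lower, beside 20.9% and 20.0% of all genes tested. Dlgap5, a mitotic spindle gene 1.612 kb from Lgals3, averaged 47.8 and 27.0 FPKM in Nrp-1+ and Nrp-1- iTreg (log2 fold change 0.80, limma adjusted p = 1.10e-06). Its neighbour Fbxo34 (0.22), and Triobp (0.17) and Sh3bp1 (0.10) beside Lgals1, were the others.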
